A study of Mus musculus with 6 samples.

Results

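The genes described here encode antiviral proteins that act inside or at the surface of infected cells: the Ifit proteins (Ifit1, Ifit2 and Ifit3), the Mx GTPases (Mx1 and Mx2), viperin (Rsad2) and the nucleotide kinase Cmpk2, tetherin (Bst2), and the membrane proteins Ifitm1 and Ifitm3. They were taken by name, as every probe that the array table lists under 1 of 10 gene names (IFIT1, IFIT2, IFIT3, MX1, MX2, RSAD2, BST2, IFITM1, IFITM3 and TYKI, the last an old name of Cmpk2). This gave 16 of 45281 probes, and 7 of the 10 genes had 1 probe only. RNA levels were measured on Illumina bead arrays in malignant epithelial cells kept as a short-term explant culture from the pancreatic tumour of a KPC-Brca1 mouse. The 3 control plates had no drug, and the other 3 received decitabine (DAC) at 0.5 µM over 48 h. DAC, a cytidine analogue, lowers DNA methylation by depleting the enzymes that copy it. The labels name 1 tumour and replicate plates, so errors and p-values reflect plate-to-plate spread alone, possibly technical, with no second animal behind them. The alleles of the model and the strain are not given in the sources used here, and both groups share them.

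Type I and type III interferons are released by cells that sense foreign or misplaced nucleic acid. They act through the Janus kinases on a transcription factor complex that binds the interferon-stimulated response element in the promoters of many genes, and the genes described here are among the best-known of them. Ifit proteins bind viral RNA or translation factors, Mx proteins are dynamin-like GTPases that trap viral nucleocapsids, viperin makes a chain-terminating nucleotide from CTP, and tetherin holds budding virions at the cell surface. Ifitm proteins hinder the fusion of viral and cellular membranes.

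On the arrays, keratin genes of simple epithelium were bright in all 6 samples, with mean log2 signals of 13.44 untreated and 13.31 with DAC for Krt18 and of 12.32 and 12.33 for Krt19, whereas Epcam was not detected. Of 9 tested epithelial markers 3 rose (Cldn4 by 1.75, Elf3 by 1.26 and Spint1 by 1.06) and Krt7 fell by 0.47. Of the macrophage and leukocyte markers, Ptprc, Adgre1, Lyz2, Itgam and Tyrobp were not detected on any array, nor were 5 of 6 endothelial markers. Summed signal of the 4 tested of 10 macrophage and leukocyte markers was 1602 to 1657 in untreated and 1344 to 1445 in DAC plates, with 2 that rose, Fcgr3 by 1.24 and Laptm5 (not detected untreated), and 1 that fell, Cd14 by 0.60. That of the 3 tested of 10 fibroblast markers was 333 to 370 untreated and 1252 to 1705 with DAC. Of these 3, Acta2 rose by 2.23 and Col1a1 by 2.22, while Pdgfra was not called, at 0.27. Another 6 markers, including Col1a2, Col3a1, Pdgfrb and Dcn, were never detected. The summed signal of 4 plasmacytoid dendritic cell markers, 2 of which rose, was 1894 to 2241 untreated and 1672 to 2030 with DAC. Such sums mostly follow the brightest gene of a list. Among the leukocyte markers this was Cd14, with mean log2 signals of 10.35 untreated and 9.74 with DAC. Among the plasmacytoid ones it was Tcf4, at 10.92 and 10.61. The signal of Esam, the only endothelial marker detected, was 29.1 to 33.6 untreated and 60.7 to 80.0 with DAC. A change in the share of such cells and a change of RNA per cell cannot be told apart in bulk RNA, and the part of either in the results below was not tested. Each array detected 43.9% to 47.4% of its probes (detection p under 0.05). Untreated replicate 1 had the highest mean intensity, 459.96 against 313 to 361 on the other 5 arrays.

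Promoter sequences are shown because interferon signalling acts on many genes through the response element. Its use in these cells was not measured. RefSeq windows of 250 bases before to 50 bases after a transcript start (GRCm38.p6) were at hand for 8 of the 10 genes, all but Mx1 and Mx2. The core of the element was searched on either strand as GAAA, any 2 bases and GAAA again, with overlapping matches counted. It was present in 5 of these 8 genes (Ifit1, Ifit3, Rsad2, Bst2 and Ifitm3) and in 3.99% of all 27025 genes with a window, and 4 of the 8 held it more than once, against 0.266% of all genes. The 160 bases before the start are given 5′ to 3′ on the strand of the gene for the 4 genes with a match there, with each match in capitals.

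Ifit1: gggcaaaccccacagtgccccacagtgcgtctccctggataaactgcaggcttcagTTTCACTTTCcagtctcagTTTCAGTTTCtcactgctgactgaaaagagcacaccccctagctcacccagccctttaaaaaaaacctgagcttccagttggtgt
Ifit3: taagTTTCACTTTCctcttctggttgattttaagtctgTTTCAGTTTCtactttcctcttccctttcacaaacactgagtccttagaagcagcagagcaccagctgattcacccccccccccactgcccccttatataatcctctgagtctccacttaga
Rsad2: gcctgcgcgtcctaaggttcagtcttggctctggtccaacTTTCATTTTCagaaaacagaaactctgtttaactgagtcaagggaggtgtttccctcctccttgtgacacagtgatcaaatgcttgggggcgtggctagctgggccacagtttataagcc
Bst2: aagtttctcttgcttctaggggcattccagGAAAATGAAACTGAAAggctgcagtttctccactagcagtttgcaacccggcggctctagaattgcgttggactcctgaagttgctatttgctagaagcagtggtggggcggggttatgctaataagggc

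The Ifit1 stretch lies at chr19:34640729-34640888 (plus strand), that of Ifit3 at chr19:34583369-34583528 (plus strand), that of Rsad2 at chr12:26456453-26456612 (minus strand) and that of Bst2 at chr8:71537473-71537632 (minus strand). Ifit1 and Ifit3 carry the same pair of decamers, TTTCACTTTC and TTTCAGTTTC, which begin 104 and 85 bases before the start in Ifit1 and 156 and 122 bases before it in Ifit3. The single match of Rsad2 begins 120 bases before its start. In Bst2 the decamers GAAAATGAAA and GAAACTGAAA overlap and begin 130 and 124 bases before the start. Ifitm3 has GAAAAGGAAA and GAAACCGAAA just after its start, in the transcribed part. No match was in the windows of Cmpk2, Ifitm1 or Ifit2 (2 windows), which says only that these letters are absent from those windows. The number of CpG dinucleotides, the sites that DNA methyltransferases act on, ranged from 1 in the Ifit3 window to 11 in that of Bst2 and in 1 of the Ifit2 windows, against a median of 7 over all windows.

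All 9 genes that could be tested rose with DAC. Of these, 8 were 2.11-fold (Ifit2) to 12.8-fold (Mx2) higher. By the mean of its DAC plates Mx1 was at least 1.15-fold higher, and Ifit1 was not detected on any array. Over all 14154 genes tested, 10.1% were called higher with DAC and 7.21% lower, at a Benjamini-Hochberg adjusted p under 0.05 (limma). The median log2 fold change was 2.11 over the 9 genes, also with Mx1 at its bound, and -0.02 over all genes. A rise of at least 8-fold was called in 0.304% of all genes, and Mx2, Cmpk2, Ifit3 and Rsad2 were among them. Of the 9, 8 were detected on all 6 arrays, while Mx1 entered the test only through the DAC arrays, which had to differ from the untreated ones. In each of the 9 the lowest DAC plate exceeded the highest untreated plate, as it did in 17.4% of all genes. By probe, 13 of the 16 were bright enough to be tested, and all 13 rose, against 8.34% of the 21415 probes tested. Of these, 2 (the Mx1 probe and an Ifitm1 probe) passed only through the DAC arrays and had to differ, which leaves 11. Values below are bead intensities as deposited, in the order of replicates 1 to 3. Fold changes are log2, DAC minus untreated, ± standard error (SE, n = 3 per group), after background correction and normalization between arrays. The SE of a fold change is that of limma, which draws on the spread of all genes. The SE of a difference between 2 genes or probes comes only from its own 6 per-array values, so the 2 kinds are not alike.

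**Figure D1:**
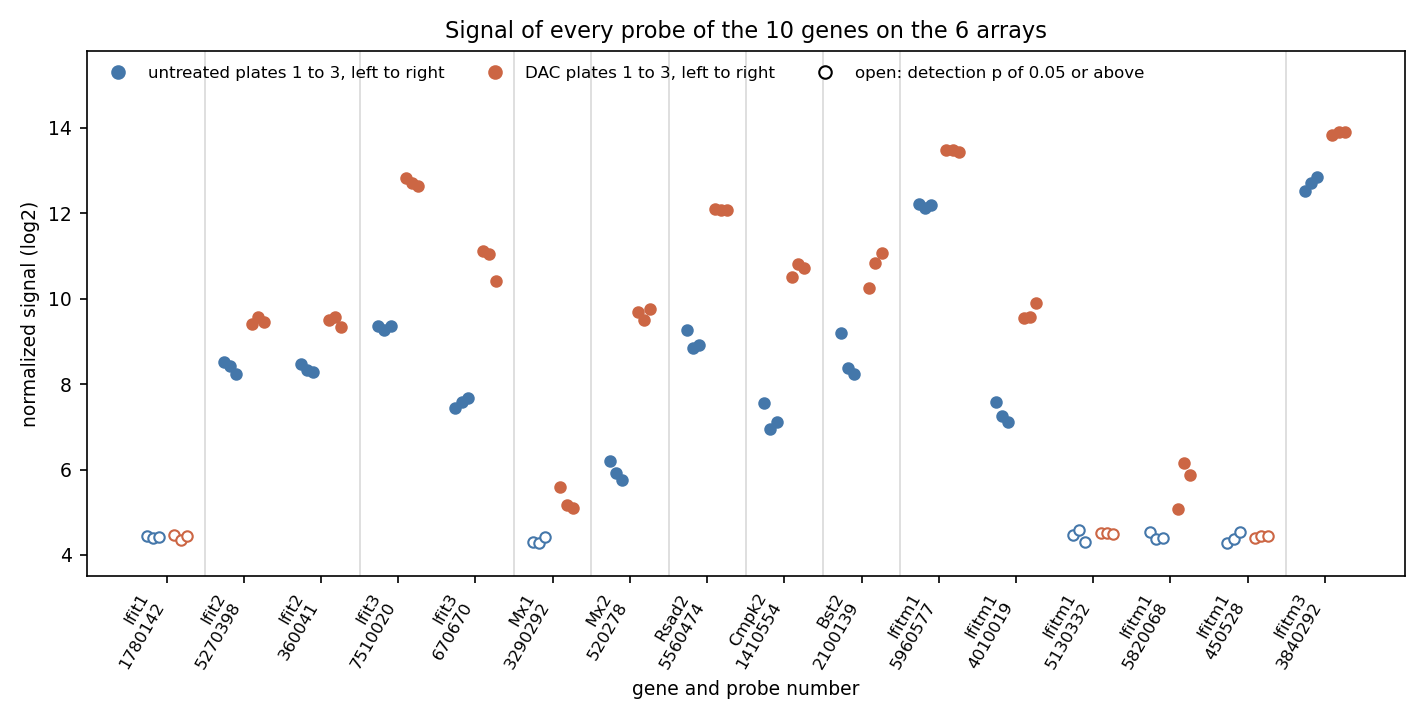
Normalized log2 signal (y axis) of the 16 probes of the 10 genes (x axis) on each of the 6 arrays. Each point is 1 plate, blue untreated and orange DAC, and open points mark a detection p of 0.05 or above. The groups are apart for all 13 tested probes, while the Ifit1 probe and 2 Ifitm1 probes stay near background on every array.

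Ifit3, which in humans stabilises IFIT1 and its grip on viral RNA, rose most of the Ifit genes tested. Its brighter probe (7510020) read 897, 599 and 651 in untreated plates and 6999, 6972 and 5606 in DAC plates. No DAC plate came near the untreated range, and the gap between the lowest DAC and the highest untreated value was 3.28 on the log2 scale. The rise was 3.40 ± 0.11, or 10.6-fold (adjusted p = 9.17e-07). The second probe of Ifit3 (670670) read 246, 213 and 234 untreated and 2186, 2128 and 1160 with DAC. DAC replicate 3 was the lowest of the treated plates with both probes. The second probe gave 3.28 ± 0.19, and the difference between the 2 probes' rises, 0.12 ± 0.19, was within their error (exact permutation test over the 6 arrays, two-sided p = 0.6, smallest possible 0.1). Mice have a near-identical gene, Ifit3b, in the same cluster, and the probes may bind its transcript too.

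Ifit2, which binds AU-rich RNA and limits infection of neurons in mice, rose far less. Its probes read 503, 352 and 327 (5270398) and 485, 330.3 and 337 (360041) in untreated plates, and 723, 790 and 598, and 771, 794 and 556, in DAC plates. Every DAC value exceeded every untreated value with both probes. The brighter probe rose by 1.08 ± 0.12, 2.11-fold (adjusted p = 0.000769), and the other by 1.11 ± 0.12. The rise of Ifit3 exceeded that of its neighbour Ifit2 by 2.32 ± 0.13 on the log2 scale. The per-array differences between the genes did not overlap between groups (exact p = 0.1, two-sided, the smallest that 3 against 3 plates can give).

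Ifit1, which recognises RNA whose cap lacks a methyl mark, is represented by a single probe (1780142). It read 54.5, 47.3 and 49 untreated and 51.8, 46.4 and 49.3 with DAC, and its detection p was 0.256 or higher on all 6 arrays. The groups overlapped. Without the filter on dim probes its fold change was -0.01 ± 0.05 (adjusted p = 0.975), and at this signal a change in Ifit1 RNA was not detectable. Another gene of the cluster, Ifit1bl2, was seen on 0 of 3 untreated and 2 of 3 DAC arrays, at 39.1 to 46.5 and 58.1 to 71.2, and was not tested.

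Mx2, whose protein acts in the cytoplasm of rodent cells, had the highest fold change of the 9 tested genes with the offset of 16 used here. Its probe read 118, 91.1 and 87.2 untreated and 857, 749 and 739 with DAC. All 3 untreated plates were dim but detected, and all 3 DAC plates were far above them. The rise was 3.68 ± 0.15, 12.8-fold (adjusted p = 2.41e-06), from a mean log2 signal of 5.96 ± 0.23 to 9.64 ± 0.13 (SD, n = 3). Because the untreated signal was low, the size depended on the background step, and it was 3.11 with a larger offset (50 in place of 16) and 2.93 without background correction, below Ifit3 and Cmpk2 in both.

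Mx1, whose protein acts in the nucleus and blocks influenza viruses, stayed close to background. It read 46.8, 42 and 48.8 untreated, not detected on any of these arrays, and 86.6, 70.1 and 62.1 with DAC, detected on all 3. Such a switch from no untreated to all DAC arrays was seen for 0.979% of the 28902 genes on the array. The fitted rise was 0.95 ± 0.15 (adjusted p = 0.00399), and against the lowest detectable signal this amounts to 1.38-fold. With other background steps the fitted rise was 0.44 (offset of 50) or 0.52 (no correction), and over 5 settings of background and scaling Mx1 was at least 1.15-fold higher. This bound takes the mean of the DAC plates without allowance for their spread (SD 0.27, log2, with the offset of 16). RefSeq annotates both Mx1 and Mx2 of the C57BL/6J assembly as transcribed pseudogenes, since laboratory strains carry defective alleles. The arrays measure their RNA, and which alleles these cells carry is not stated in the sources used here.

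Rsad2 and Cmpk2 lie next to each other on chromosome 12, and their products act in the same nucleotide pathway, Cmpk2 phosphorylating CMP in mitochondria and viperin converting CTP. Rsad2 read 838, 454 and 496 untreated and 4212, 4359 and 3712 with DAC. The DAC plates agreed closely after normalization, at a mean log2 signal of 12.07 ± 0.01, while the untreated plates were at 9.01 ± 0.22 (SD, n = 3), untreated replicate 1 being the highest. The rise was 3.06 ± 0.14, 8.35-fold (adjusted p = 4.38e-06). Cmpk2 read 262, 151 and 171 untreated and 1484, 1829 and 1444 with DAC. Again the groups were far apart, by 2.96 on the log2 scale at the nearest values, and untreated replicate 1 was the highest of its group. The rise was 3.48 ± 0.17, 11.2-fold (adjusted p = 7.68e-06). Cmpk1, the cytosolic kinase of CMP and UMP, did not pass the test, at 0.07 ± 0.17 (adjusted p = 0.816), and the change of Cmpk2 exceeded that of Cmpk1 by 3.41 ± 0.37 (exact p = 0.1, the smallest possible).

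Bst2, tetherin, rose with the largest standard error of the 9 tested genes. Its only probe (2100139) read 798, 339 and 326 untreated and 1262, 1856 and 1833 with DAC. Untreated replicate 1 was far above the other untreated plates, and DAC replicate 1 was the lowest treated plate, yet the groups did not overlap. The rise was 2.11 ± 0.28, 4.33-fold (adjusted p = 0.0019). Without untreated replicate 1 it was 2.38, and without DAC replicate 3 it was 1.94. The beads of this probe disagreed with each other on every array. Their standard error was 10.4% to 16.5% of the mean, against a median of 4.12% over all tested probes and arrays. By its lowest value over the 6 arrays, the Bst2 probe had the largest relative bead error of all 21415 probes tested. Its 25 to 33 beads per array were also fewer than the array median of 44 or 45.

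**Figure D2:**
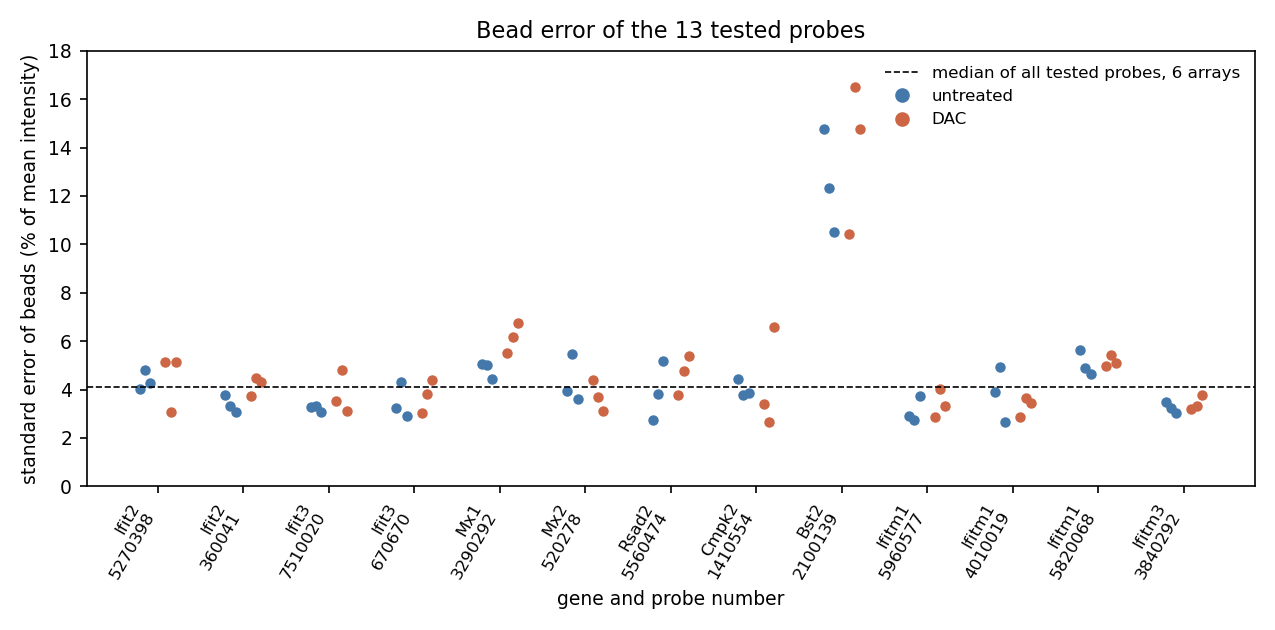
Standard error between beads, as a percentage of the mean intensity (y axis), for the 13 tested probes (x axis) on each array, blue untreated and orange DAC. The dashed line is the median over all tested probes, 4.12%. The Bst2 probe lies between 10.4% and 16.5% on all 6 arrays, and no other tested probe of these genes exceeds 6.74%.

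Ifitm1 and Ifitm3 sit together on chromosome 7 with Ifitm2 and Ifitm5. Ifitm3, which guards late endosomes against influenza viruses, read 7862, 5993 and 6800 untreated and 13861, 14982 and 14184 with DAC. It was bright in every plate, and the lowest DAC value was still 0.97 above the highest untreated value on the log2 scale. The rise was 1.19 ± 0.12, 2.27-fold (adjusted p = 0.000473). Only 88 to 101 probes were brighter on each DAC array, and the brightest probe of those arrays reached 22003 to 24103, so that the signal was below the top of the scale.

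Ifitm1, found mainly at the cell surface, had 5 probes that did not behave alike. Probe sequences were not used here, so whether any of them also binds Ifitm2, or which transcript the Ifit1 probe targets, is not known. The brightest (5960577) read 6506, 4018 and 4228 untreated and 10929, 11564 and 9932 with DAC. It rose by 1.29 ± 0.10, 2.44-fold (adjusted p = 0.000108). A second probe (4010019) read 267, 178 and 171 untreated and 796, 791 and 808 with DAC. The 3 DAC plates were close to each other there, well above the untreated ones. This probe rose by 2.36 ± 0.16, which exceeded the rise of the brightest probe by 1.07 ± 0.18, with no overlap of the per-array differences (exact p = 0.1, the smallest possible). Another probe (5820068) was detected on no untreated array and on all 3 DAC arrays, at 69.9, 105 and 79.2, and was at least 1.33-fold higher over the 5 settings of background and scaling. The remaining 2 probes (5130332 and 450528) were not detected on any array. With the mean of its tested probes in place of the brightest, the rise of Ifitm1 was 1.64.

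Ifitm2, a close relative that lies beside Ifitm1, read 6481, 3987 and 4423 untreated and 4641, 4612 and 4184 with DAC. The groups overlapped, and the gene did not pass the test, at 0.00 ± 0.11 on the log2 scale (adjusted p = 0.993). The change of Ifitm1 exceeded that of Ifitm2 by 1.29 ± 0.04, and that of Ifitm3 exceeded it by 1.18 ± 0.11. In both pairs the per-array differences did not overlap between groups (exact p = 0.1 each, the smallest possible). Over all 8 pairs of probes or genes compared in this way, the lowest exact p was 0.133 after Benjamini-Hochberg adjustment. Ifitm5, a bone-cell gene, was dim and did not pass, at 0.17 ± 0.16, and Ifitm6, Ifitm7 and Ifitm10 were not detected.

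Among the 8 genes detected on all arrays the order of fold change was Mx2, Cmpk2, Ifit3, Rsad2, Bst2, Ifitm1, Ifitm3 and Ifit2, and Mx1, with a bound only, has no place in it. Ifit3 came first with an offset of 50 (3.33) or no background correction (3.30). Mx2 exceeded Cmpk2 by 0.20 ± 0.18 and Cmpk2 exceeded Ifit3 by 0.08 ± 0.21, differences near or below their standard errors. Ifit3 and Rsad2 differed by 0.34 ± 0.12, Rsad2 and Bst2 by 0.95 ± 0.30, and Bst2 and Ifitm1 by 0.82 ± 0.38. The place of Ifitm1 is that of its brightest probe. Its probe 4010019 rose by 2.36, above Bst2 at 2.11, and the mean of its tested probes by 1.64. Ifitm1 exceeded Ifitm3 by 0.10 ± 0.11 and Ifitm3 exceeded Ifit2 by 0.11 ± 0.18, both below their standard errors. Untreated replicate 1 was the highest untreated plate for 7 of the 9 genes and the lowest for Ifitm3. The DAC plates did not share an order, each being the highest for 2 to 4 genes. All 9 genes were called higher under each of 16 alternative treatments of the data that kept the gene, with 139 values in all.

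**Figure D3:**
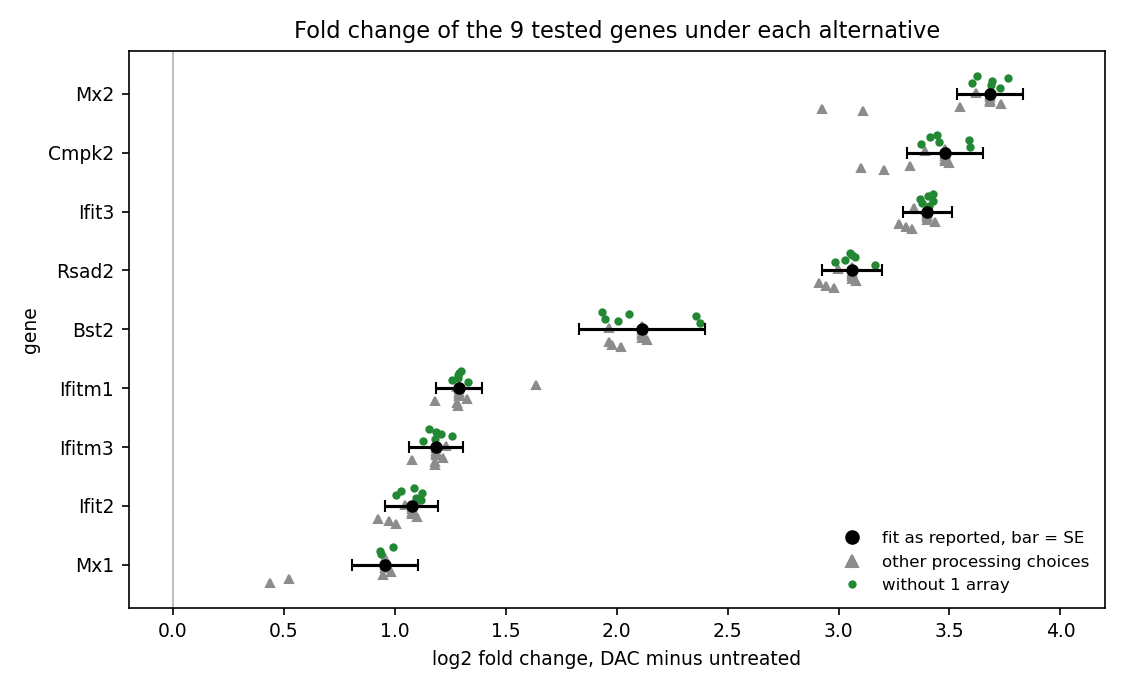
Log2 fold change, DAC minus untreated (x axis), of the 9 tested genes (y axis). Black points with SE bars are the reported fit, grey triangles other processing choices and green points the fits without 1 array. All values are above 0, and the widest ranges are those of Mx2 (2.93 to 3.76) and Mx1 (0.44 to 0.99).

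Genes beside the effectors on the chromosomes were compared in the same fit, taking the 2 nearest tested genes on each side and those in between. The flanking ones lay 3.8 kb (Tmprss2) to 2151 kb (Rps7) away. Of these 21 neighbours 4 rose and 1 fell, where 10.1% of all genes rose and 7.21% fell. The nearest tested neighbours of Rsad2 and Cmpk2, Id2 (1347 kb away) and Sox11 (854 kb), did not pass, at 0.43 ± 0.13 and -0.40 ± 0.13. None of the 4 neighbours of Bst2, all within 34.6 kb, passed, with Plvap at 0.45 ± 0.16 and Mvb12a at 0.23 ± 0.18. Of those of the Ifitm pair, Pkp3 was at 0.24 ± 0.14 and Sigirr at -0.28 ± 0.12, neither past the threshold. At the Mx locus, Fam3b, which encodes a secreted pancreatic cytokine and lies between Mx1 and Mx2, rose by 1.27 ± 0.16 (adjusted p = 0.00153), having been detected on 1 of 3 untreated arrays, and by 0.61 without background correction. Outside the pair, Bace2 was at 0.02 ± 0.12 and Tmprss2 at -0.43 ± 0.15, neither called, and the kinase gene Ripk4 fell by 0.50 ± 0.13 (adjusted p = 0.0342), a call lost without any 1 array other than untreated replicate 1. At the Ifit cluster the death receptor gene Fas rose by 1.66 ± 0.15 (1.00 without background correction) and the mitotic kinesin gene Kif20b by 1.21 ± 0.15. Ch25h, an antiviral oxysterol enzyme, rose by 0.65 ± 0.18 (adjusted p = 0.0379), a call also lost without any 1 array other than untreated replicate 1, while Pank1 did not pass, at 0.12 ± 0.15. Without untreated replicate 1, 6 of the 21 rose.

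**Figure D4:**
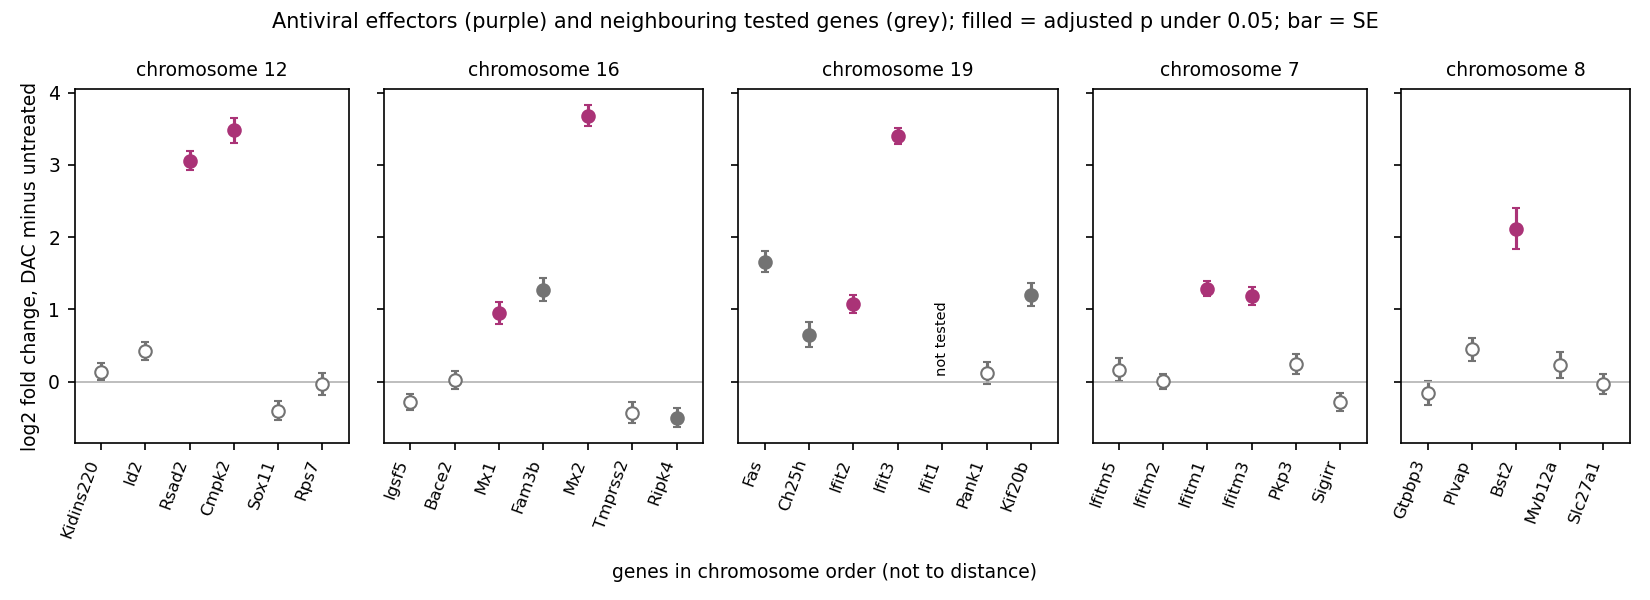
Log2 fold change, DAC minus untreated (y axis), of the antiviral effector genes (purple) and neighbouring tested genes (grey) in chromosome order at 5 loci (x axis, distances not to scale). Bars are SE and filled points passed an adjusted p of 0.05. Mx2 (3.68) and Ifit3 (3.40) stand above their neighbours, and Fam3b (1.27) between Mx1 and Mx2 is also filled.

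Other genes of the interferon pathway were described from lists of ligands, regulators, sensors and effectors. Over all genes tested, 10.1% rose and 7.21% fell. Of 22 interferon and receptor genes, 21 were on the array, 12 were never detected, 7 were tested and 0 were called in either direction (limma). Ifngr1, a receptor chain for interferon gamma, was at -0.38 ± 0.13 with an unadjusted p of 0.0165, and was the only one with an unadjusted p under 0.05. Among the tested genes were the interferon genes Ifna6, at 0.04 ± 0.12, and Ifnab, at -0.23 ± 0.13. Both were detected on all 6 arrays, through probes 5820189 and 6520674, while their other probes were not detected. Ifnb1 was not tested, having been detected on 0 of 3 untreated and 2 of 3 DAC arrays, at 42.6 to 49 and 56.5 to 65.8. The probe of Ifnar1, a chain of the type I receptor, was not detected on any array, and Ifnar2 was at -0.22 ± 0.12. Without untreated replicate 1, 1 of these genes rose and 2 fell.

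Among 18 tested genes of interferon signalling and feedback 9 rose and 2 fell, where 10.1% of all genes rose and 7.21% fell. The median log2 fold change was 0.53. Of the 16 detected on all arrays 8 rose, against 1090 of all 12256 such genes. Irf7, the factor that amplifies interferon transcription, rose by 3.48 ± 0.13 (2.78 without background correction), and Usp18, which removes Isg15 from proteins and dampens the receptor, by 2.86 ± 0.13. Irf5 was detected on no untreated array, so it entered the test only through the DAC arrays and had to differ. It was at least 1.69-fold higher over the 5 settings of background and scaling (adjusted p = 3.47e-05 as fitted). The falls were those of the signalling inhibitor Pias1, by 0.44 ± 0.11, and of the kinase Jak2, by 0.41 ± 0.12, and both were lost without any 1 array other than untreated replicate 1. Of 16 tested sensors and adaptors 9 rose and 1 fell, with a median of 0.64, and 6 of the 12 detected on all arrays rose. Dhx58 rose by 2.92 ± 0.14 (2.31 without background correction), the RNA sensor gene Ddx58 (RIG-I) by 1.84 ± 0.12 (1.13 as the mean of its probes) and the DNA sensor gene Cgas 2.83-fold, and Ddx60 was at least 2.65-fold higher over the same settings (adjusted p = 2.41e-06 as fitted). Sting1, the adaptor below Cgas, fell by 0.65 ± 0.13 (adjusted p = 0.0114), which was not called without DAC replicate 2. The 9 rises were 5 without DAC replicate 2 or 3, and the falls were 3 without untreated replicate 1.

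Of 29 tested genes of other antiviral effectors 25 rose and 0 fell, against 10.1% and 7.21% of all genes. Among the 23 detected on all arrays 19 rose. The median was 1.67, with values up to 4.00 for Gbp3, a guanylate-binding GTPase. Gbp2 rose by 3.62 ± 0.13, Oas1g, of the enzymes that activate RNase L, by 3.07 ± 0.11 (1.88 as the mean of its probes), and the GTPase gene Igtp by 2.52 ± 0.11. Ifi27, Apobec3, Plscr1 and Zc3hav1 were not called, with values from -0.26 to 0.76. Of 8 tested structural relatives of the effectors, 1 rose and 1 fell, near the shares over all genes, with a median of -0.04. The thymidylate kinase gene Dtymk rose by 0.72 ± 0.11 (a call lost with median scaling) and the mitochondrial dynamin gene Opa1 fell by 0.81 ± 0.22, the latter called in 7 of 16 alternatives and lost when replicate 2 or 3 of either group was left out. The change of Mx2 exceeded that of Dnm1l, the dynamin of mitochondrial fission, by 3.76 ± 0.23 (exact p = 0.1, the smallest possible). The dynamin genes Dnm1l, at -0.08 ± 0.12, and Dnm1, at -0.59 ± 0.29, and the adenylate kinase gene Ak3, at -0.12 ± 0.11, did not pass. Of 11 tested housekeeping genes 0 were called by limma, with 2 at an unadjusted p under 0.05 (Tubb5 at 0.30 ± 0.12 and Rpl13a at -0.28 ± 0.12), and without untreated replicate 1, 1 rose and 2 fell.

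Genes most like the effectors across the 6 arrays were named by their Pearson r with the mean centred profile of the 8 effectors detected on every array, among 408 other genes that were detected on all arrays and at least 2-fold apart. Among the 5 highest were Usp18, the immunity-related GTPase gene Irgm2, the claudin gene Cldn4 and the transporter gene Slc47a1, with r between 0.999 and 1.00. Their log2 fold changes were 2.86, 2.32, 1.75 and 3.70, the last being 2.43 as the mean of its probes. As the 6 arrays form 2 groups, r here mostly measures the step between them together with small spread within groups.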

How the data were processed

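Per the file headers, the deposited table holds 4 values of a probe on an array, namely the average bead intensity, the bead standard error, a bead count and the detection p-value. These intensities are linear and were not background-corrected or normalized by the authors. The basis of the detection p-value, the scanner software and the genome build are not stated in the labels. The second deposited table (values per Illumina identifier) was not used, because its identifiers are not paired with gene names here.

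Background was corrected and arrays normalized in R 4.3.3 with limma 3.58.1 (neqc: negative controls inferred from the detection p-values, offset 16, quantile normalization, log2). Probes detected on at least 3 of 6 arrays (p under 0.05) were kept, 21415 in all. Array names were matched to RefSeq symbols or to a synonym of a single gene (GRCm38.p6, names and gene order only), which named 16223 and 5684 of 30854. Each gene took its brightest probe. Groups were compared with lmFit and eBayes without covariates, with Benjamini-Hochberg adjustment over all genes or all probes. The procedure was tested on simulated data. The number of arrays limits the precision. For a gene not detected in untreated plates a bound is given. Per array, it uses the higher of the gene's own value and the lowest detected signal (4.76 to 4.93, log2). The lowest bound over 5 settings of background and scaling is printed, chosen after seeing the data. It compares means and makes no allowance for the spread of the DAC plates.

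The genes, the lists and the tests were chosen with earlier results of these data known. Named were all 10 effectors, the neighbours, all tested relatives, the 4 genes of lowest adjusted p and every fall of each list, and the 5 most alike genes, and others outside that rule after their values were seen. Alternatives were other offsets, background, scaling, filters, probe summaries, a replicate block, untreated replicates 2 and 3 averaged, and each array left out. A gene that this rule names is not reported here.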

Additional observations from a re-analysis of the deposited data

How the results depend on the processing

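Each of the 9 tested genes kept its direction and its call in every alternative that kept the gene (139 values). Mx1 was not tested with detection on all arrays, at a detection p under 0.01, or without any 1 DAC array, because it then failed the filter. The description of the design states no pairing of plates, so the numbers were not taken as pairs. Deviations of same-numbered plates from their group means had correlations of -0.61, -0.11 and -0.48. As these deviations are centred within each group, such values cannot show that the plates varied independently. With the replicate number as a block, adjusted p was 0.0309 for Mx1 and 0.0191 for Bst2, 12 of the 13 probes were called, and 697 genes rose and 177 fell in all. Median scaling moved the median of all genes from -0.02 to -0.12 and gave 907 rises and 967 falls, against 1429 and 1021. Counts of rises in all genes were 929 with untreated replicates 2 and 3 averaged and 636 to 2539 with 1 array left out, and falls were 391, and 285 to 2162.

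Small counts in the lists moved as follows, and the cause was not tested. Falls in the signalling list were 0 with median scaling, the replicate block or the averaged plates, 1 with cyclic loess, and 0 to 2 without 1 array. Falls among sensors were 0 with the block and 0 to 3 without 1 array, and rises there 5 to 9. Rises among relatives were 0 with median scaling and with the block. Falls among relatives were 0 with cyclic loess, without the filter on dim probes, with the block, with the averaged plates and with the mean of probes, and 0 to 2 without 1 array. Falls among ligands and receptors were 1 without background correction and 1 with the mean of probes, and 0 to 2 without 1 array, with 0 to 1 rises. Falls among neighbours, an alternative added after seeing the data, were 2 with an offset of 50 or no background correction, 0 with median scaling, the block or the averaged plates, and 0 to 1 without 1 array. Housekeeping genes had 0 to 1 rises and 0 to 2 falls without 1 array. Signal near background limits Ifit1, Mx1 and 3 of the 5 Ifitm1 probes.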
